A study of Mus musculus with 36 samples.

Results

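Through heart development, 9 genes of the sarcomere's M-band and Z-disc were followed: Myom1, Myom2, Mybpc3, Ttn, Tcap, Actn2, Myoz2, Ldb3 and Csrp3. They were chosen by gene symbol, as 9 of the 20701 genes on the array, and all 19 of their probe sets were read. A probe set is a group of short probes that together report 1 transcript, and a gene may have several: Ttn has 6, Myom2 has 4, Ldb3 has 3 and each of the other members has 1. The hearts came from OF1 mice, for which no allele or treatment is named, and were collected daily from E10.5 to E19.5, from young adults of 10 weeks and from old adults. The age of the old adults is 10 months in the study's methods and 14 months in the series description. Of the 36 arrays, 3 belong to each of the 12 stages. The first 2 stages have arrays of mixed sex alone, and later stages have 1 female, 1 male and 1 mixed array each. Heart tissue was homogenised for RNA without separating its cell types, and the mixed samples combine hearts of both sexes.

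The sarcomere is the contractile unit of the cardiomyocyte. Actin filaments are anchored at its borders, the Z-discs, and myosin filaments are held together at its middle, the M-band. The giant protein titin (Ttn) spans from one to the other. Alpha-actinin 2 (Actn2) cross-links actin and titin in the Z-disc, where telethonin (Tcap) caps the end of titin, and myozenin 2 (Myoz2, calsarcin-1), the PDZ-LIM protein Ldb3 (Cypher or ZASP) and muscle LIM protein (Csrp3) are docked. In the M-band, the myomesins Myom1 and Myom2 bridge neighboring myosin filaments. Myosin binding protein C (Mybpc3) sits on the myosin filament between both structures and tunes contraction. Mutations in several of these genes are known causes of inherited cardiomyopathy.

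The genes do not lie together in the genome. Of the members whose changes are described first, Myom2 is on chromosome 8, Tcap on chromosome 11 (98383811 to 98384953), Myoz2 on chromosome 3 (123006206 to 123035003) and Ldb3 on chromosome 14 (34526699 to 34590314), in assembly GRCm38.p6. RefSeq's sequences before annotated starts in that assembly were matched for 7 of the 9 members, in 9 windows of 250 bases that end at the base before a start. The Ldb3 probe set 1416752_at rose to the adult, as Myoz2 did. The brightest one of Ldb3, 1433783_at, fell. Sequences of Myoz2, Ldb3 and Ttn are shown because of that difference and because Ttn shares a match with Myoz2. They are written 5′ to 3′ in the direction of the gene, all 3 from the minus strand, at chr3:123034988-123035237, chr14:34588682-34588931 and chr2:76982548-76982797. Capitals mark a MEF2 site in Myoz2 and Ttn and a CArG box, the recognition element of serum response factor, in Ldb3.
Myoz2: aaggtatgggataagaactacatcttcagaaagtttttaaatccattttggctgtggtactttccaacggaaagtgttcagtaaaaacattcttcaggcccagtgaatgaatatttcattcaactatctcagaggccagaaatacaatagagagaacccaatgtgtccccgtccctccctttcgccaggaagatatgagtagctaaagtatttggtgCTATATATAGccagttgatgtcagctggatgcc
Ldb3: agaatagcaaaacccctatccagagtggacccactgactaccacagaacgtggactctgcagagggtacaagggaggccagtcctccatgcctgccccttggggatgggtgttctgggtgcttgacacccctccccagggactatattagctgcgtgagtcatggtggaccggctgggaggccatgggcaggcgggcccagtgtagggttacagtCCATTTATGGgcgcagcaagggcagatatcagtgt
Ttn: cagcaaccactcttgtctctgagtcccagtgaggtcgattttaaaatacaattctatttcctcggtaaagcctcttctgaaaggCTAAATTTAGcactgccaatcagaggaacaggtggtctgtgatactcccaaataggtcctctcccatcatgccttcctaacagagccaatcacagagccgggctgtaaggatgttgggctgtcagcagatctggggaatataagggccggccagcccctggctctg

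The 5 motifs named here were searched on both strands. A MEF2 site was found in 3 of the 9 windows (Ttn, Mybpc3 and Myoz2), against 2.92% of all 32851 windows in the table. A CArG box was found in 3 windows, both overlapping windows of Ldb3 and that of Myom1, against 1.47% of all. The motif AGATAA, recognised by GATA factors, was found in the Myom1 window, against 9.99% of all. CATTCC (in 12.6% of all windows) and TATAAA (in 12.4%) were found in 0 of the 9. No match overlapped another motif's match. These are matches of letters in 1 window per start, with no binding measured here.

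The values are log2 intensities as the study deposited them, and a difference of 1 on this scale is a 2-fold change. Stages were compared with limma, a linear model over all 45101 probe sets and all arrays, with Benjamini-Hochberg adjustment over all probe sets. "Rose" and "fell" are used at an adjusted p under 0.05. The study's stricter rule for a differentially expressed gene (DEG) asks for an adjusted p under 1e-05, a log2 change past 2 in either direction and some stage with a mean over 5. Of the 19 probe sets, 17 had such a mean. Those without were 1438372_at of Myom2 and 1446450_at of Ttn.

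Markers of cardiomyocytes were high throughout, with summed intensities of 28291 to 35577 at E10.5, from 41164 to 48136 just before birth (E19.5) and 41326 to 45095 in young adults over 11 measured genes. All 6 measured liver markers had means below 5 at E10.5, E19.5 and in old adults, and 1, Ahsg, reached 5.03 in young adults. They were looked at because the labels' extraction text names liver. Of 11 skeletal muscle markers, 2 had means above 5 at E10.5 (Mylpf and Tnni2), 0 at E19.5 and 1 in young adults (Mylpf). Summed erythroid markers were 18939 to 25110 at E10.5 and 101 to 174 in young adults, and leukocyte markers 85.3 to 93.9 and 1402 to 1736. The erythroid sum mostly reads embryonic globins: Hbb-y (means of 13.60 at E10.5 and 3.10 in young adults), Hbb-bh1 (12.99 and 3.33) and Hba-x (11.01 and 3.74). Of 4 expressed erythroid markers these 3 fell, and Alas2 (5.68 and 6.34) did not pass. The sum is therefore no measure of erythroid cells as a whole. In whole hearts, fewer cells of a type and less RNA per cell cannot be told apart. The mean level of the spiked hybridization controls was 9.65 in E10.5 arrays, 10.93 in E19.5 arrays, 12.00 in young adults and 11.16 in old adults. It moves with stage, and its relation to single members is given beside them.

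Between E10.5 and young adult hearts, 15 of the 19 probe sets passed the test, 11 higher and 4 lower in the adult, and they belong to 7 genes. Of all probe sets, 63% passed, so that this count is read against a broad background. The members' median change was 0.56, against 0.19 over all probe sets and -0.41 over those with a stage mean above 5. By the DEG rule 8 of 19 were called, 6 higher and 2 lower, in Myom2, Tcap, Myoz2, Ldb3 and Ttn, against 6.53% of all probe sets. The rule asks for a stage mean above 5, which 17 of the 19 had but 45.9% of all probe sets. DEG shares over all probe sets are therefore not a like background for the members. Between E10.5 and E19.5, 15 of 19 passed, 14 higher and 1 lower at E19.5, against 45.5% of all. From E19.5 to young adult, 11 passed, 4 higher and 7 lower, against 29.1% of all, and 2 were DEGs (Tcap higher, Ldb3 lower), against 1.45%. Leading members differed in when they moved, which is described gene by gene.

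**Figure D1:**
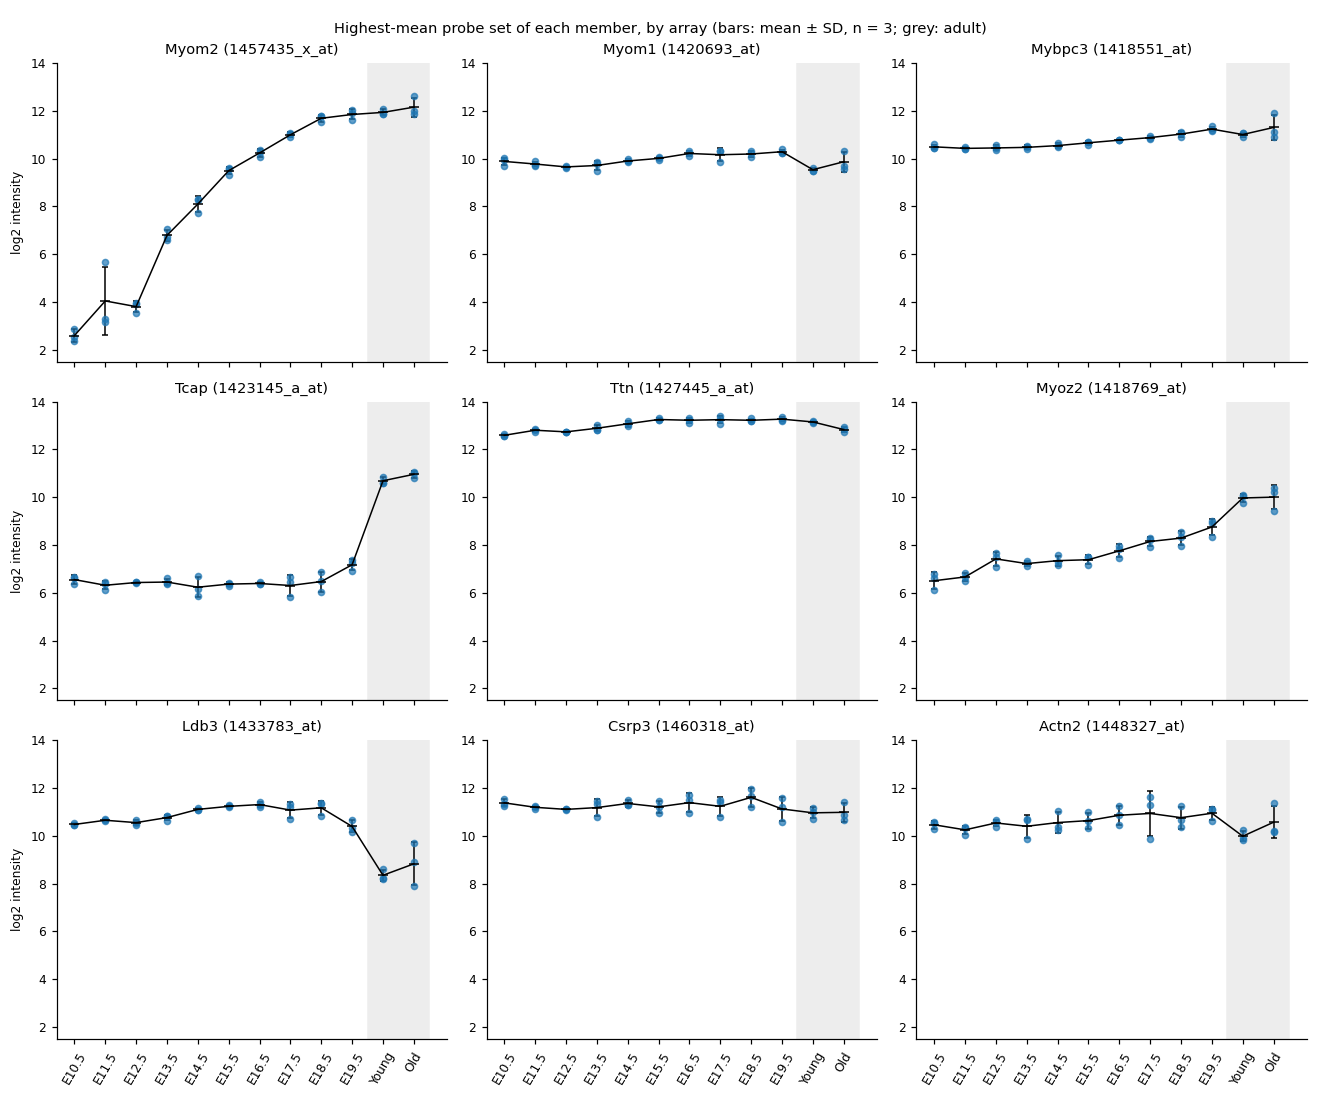
Log2 intensity (vertical axis, the same in all panels) of the probe set with the highest mean of each member at the 12 stages (horizontal axis). Points are arrays, bars are the mean ± SD of 3 arrays and grey marks the adult stages. Myom2 climbed within the embryo from 2.60 to 11.85, whereas Tcap stayed between 6.23 and 6.55 until E18.5 and stood at 10.69 in young adults.

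Myom2, the myomesin of fast and adult striated muscle, had the widest range of the 9 genes. In its brightest probe set (1457435_x_at) the 3 E10.5 arrays read 2.89, 2.37 and 2.54. The E19.5 arrays read 12.03 (female), 11.90 (male) and 11.62 (mixed), and the young adult arrays 11.85, 11.88 and 12.08 in the same order. The E19.5 and young adult arrays overlapped, and both lay far above E10.5. The change from E10.5 to E19.5 was 9.25 ± 0.35 (SE; limma adjusted p = 3.42e-19), while that from E19.5 to young adult was 0.09 ± 0.35 (adjusted p = 0.885). E19.5 thus had 99.1% of the log2 distance between E10.5 and young adult, and 98.1% to 100.3% when any 1 array was left out. Because the E10.5 mean of 2.60 is under the expression limit of 5, the fold behind it depends on the array's lowest intensities.

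The climb of Myom2 ran through all embryonic windows. With a term for the title prefix of the labels, its change from E16.5 to E19.5 was 1.79 and did not pass (limma adjusted p = 0.0797). Stage means of this probe set were 3.81 ± 0.22 (SD, n = 3) at E12.5, 6.79 ± 0.24 at E13.5, 8.10 ± 0.33 at E14.5, 9.50 ± 0.16 at E15.5, then 10.24 ± 0.17 at E16.5, 11.00 ± 0.10 by E17.5 and 11.69 ± 0.15 at E18.5. From E13.5 to E18.5 no array of one stage overlapped with an array of the next. The single step of E12.5 to E13.5, 2.98, was the largest. At E11.5 the third mixed array stood apart at 5.70, with the others at 3.16 and 3.29. The probe set 1438175_x_at did not show this, as its E11.5 arrays read 3.30, 4.61 and 4.59.

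Other probe sets of Myom2 gave the same course on other scales. From E10.5 to young adult, 1438175_x_at changed by 6.47 ± 0.24 and 1450917_at by 5.44 ± 0.27, with 96.8% and 85.4% of the distance covered at E19.5. In 1450917_at the later rise from E19.5 to young adult also passed (0.79 ± 0.27, limma adjusted p = 0.0238). The fourth, 1438372_at, stayed between means of 2.00 and 2.64 and is not counted as expressed, although it too was higher in young adults than at E10.5 (0.64 ± 0.15, adjusted p = 0.000548). An x in the name of a probe set marks probes that can also match other sequences, which applies to both of the brightest ones. The unmarked 1450917_at does not share that limit.

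Myom1, the myomesin made in all striated muscle, was near its later level from the start. Its E10.5 arrays read 9.93, 10.02 and 9.71, its E19.5 arrays 10.23, 10.40 and 10.25, and its young adult arrays 9.62, 9.49 and 9.50. The E19.5 arrays were above those of both other groups. The gene rose from E10.5 to E19.5 (0.41 ± 0.15, limma adjusted p = 0.0283, not passing without E10.5 array 3 or the male or mixed E19.5 array, with adjusted p values of 0.0527 to 0.12) and fell to young adult (-0.75 ± 0.15, adjusted p = 0.000233). With the hybridization control level as a covariate the fall was -0.41 (adjusted p = 0.0526). The net change from E10.5 to young adult was -0.35 ± 0.15 (adjusted p = 0.0456). It did not pass without E10.5 array 1 or 2 or without the male or mixed young adult array, with adjusted p values of 0.0976 to 0.158, and its sign turned when arrays were centred on expressed probe sets (0.18). The range of its 12 stage means was 0.75, against 9.56 for Myom2.

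Mybpc3, whose product tunes cross-bridge cycling, climbed slowly. The E10.5 arrays read 10.46, 10.60 and 10.43, the E19.5 arrays 11.20, 11.35 and 11.16, and the young adult arrays 11.06, 11.05 and 10.91. All E10.5 arrays were below all arrays of both other groups. The rise to E19.5 was 0.74 ± 0.15 (limma adjusted p = 0.000162) and that to young adult 0.52 ± 0.15 (adjusted p = 0.00363). With a term for the title prefix of the labels neither passed (0.75 and 0.53, adjusted p of 0.0607 and 0.136), and the second did not pass with the hybridization control level as a covariate (0.77, adjusted p = 0.0506). Mybpc3 increased in 8 of the 9 daily steps, none above 0.21.

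Tcap, which caps the titin amino termini in the Z-disc, had most of its change after E19.5. Its stage means lay between 6.23 and 6.55 on every day from E10.5 to E18.5. The E19.5 arrays read 7.23 (female), 7.37 (male) and 6.92 (mixed), each above the highest of the 27 earlier embryonic arrays, 6.88. Young adult arrays read 10.60, 10.61 and 10.86, and old adult arrays 10.79, 11.07 and 11.02. All 30 embryonic arrays were below all 6 adult arrays. The change from E19.5 to young adult was 3.51 ± 0.19 (11.4-fold, limma adjusted p = 4.58e-15), and that from E16.5 to E19.5 was 0.78 ± 0.19 (adjusted p = 0.0106). The latter did not pass without the male E19.5 array (adjusted p = 0.0852) or with a term for the title prefix (adjusted p = 0.196). E19.5 had 15.0% of the log2 distance from E10.5 to young adult, and 12.7% to 18.1% when any 1 array was left out. Which day after E19.5 carries the rest cannot be read from these stages, since no array lies between E19.5 and 10 weeks.

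Titin itself changed little in its brightest probe set (1427445_a_at), whose E10.5 arrays read 12.55, 12.56 and 12.66. The E19.5 arrays read 13.24, 13.19 and 13.37, the young adult arrays 13.09, 13.17 and 13.19, and the old adult arrays 12.85, 12.93 and 12.71. Each of the 3 later groups was above E10.5 in every array. The rise to E19.5 was 0.68 ± 0.11 (limma adjusted p = 5.83e-06), and the change from E19.5 to young adult was -0.12 ± 0.11 (adjusted p = 0.446). These intensities are near the top of the array's range, where probes may saturate.

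The 6 probe sets of Ttn did not move as one. From E10.5 to young adult 1444638_at rose by 1.59 ± 0.23 and 1444083_at by 0.88 ± 0.17, and 1431928_at fell (-2.12 ± 0.34, limma adjusted p = 3.15e-06). The last read 7.50, 8.26 and 8.76 at E10.5, 7.28, 6.95 and 6.61 at E19.5, and 5.99, 6.14 and 6.03 in young adults. Its young adult arrays were below all arrays of both other groups, and E10.5 and E19.5 did not overlap. The change of 1427446_s_at was -0.17 ± 0.14 (adjusted p = 0.29) and that of 1446450_at 0.25 ± 0.23 (adjusted p = 0.339). Which part or isoform of the titin transcript each probe set reads was not analysed here.

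**Figure D2:**
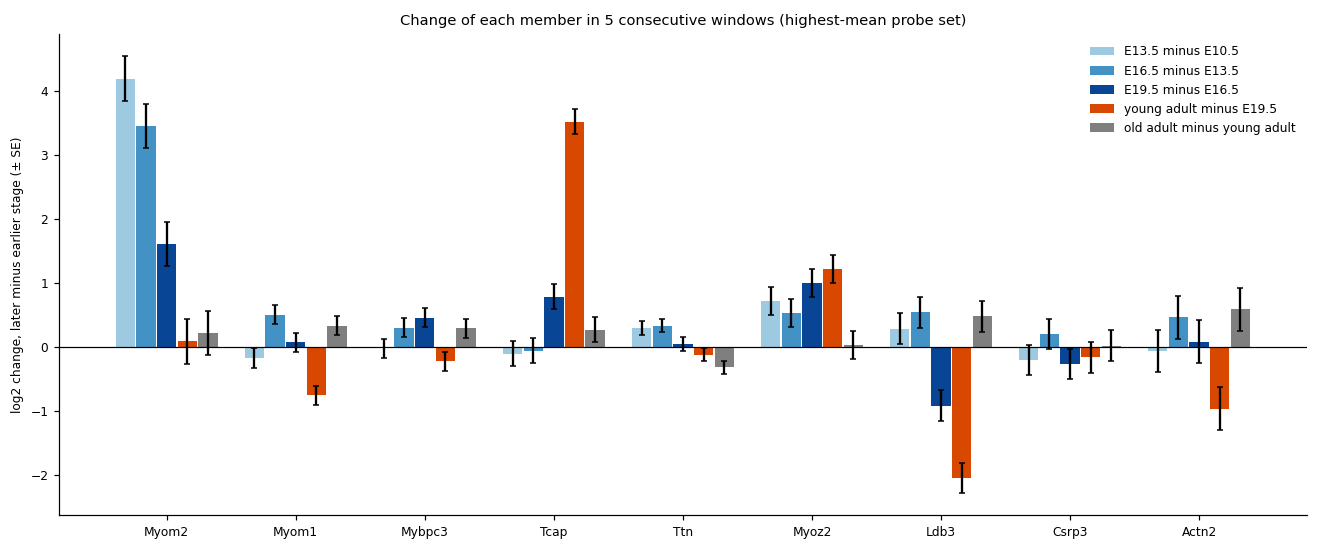
Log2 change (vertical axis, later minus earlier stage, ± SE from the fit) of the highest-mean probe set of each member in 5 consecutive windows (colors). Myom2 has its bars in the embryonic windows, Tcap in the window after E19.5 (3.51), Myoz2 in embryonic and later windows, and Ldb3 has a negative bar after E19.5 (-2.04).

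Among the Z-disc proteins docked on alpha-actinin, Myoz2, an inhibitor of calcineurin, rose before and after E19.5. The E10.5 arrays read 6.62, 6.79 and 6.11, the E19.5 arrays 9.004, 8.91 and 8.35, and the young adult arrays 9.76, 10.06 and 10.09. None of these groups overlapped. The change was 2.25 ± 0.22 from E10.5 to E19.5 (limma adjusted p = 1.22e-09) and 1.21 ± 0.22 from E19.5 to young adult (adjusted p = 5.77e-05), 11.0-fold over the whole course. E19.5 had 65.0% of the log2 distance, and 61.4% to 70.8% when any 1 array was left out. All 30 embryonic arrays were below all 6 adult arrays, as with Tcap.

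Ldb3 encodes a scaffold that links alpha-actinin to protein kinase C, and its probe sets went in opposite directions. In the brightest, 1433783_at, the E10.5 arrays read 10.46, 10.43 and 10.53, the E16.5 arrays 11.19 (male), 11.43 (mixed) and 11.29 (female), the E19.5 arrays 10.34, 10.16 and 10.66, and the young adult arrays 8.20, 8.23 and 8.61. The adult arrays were the lowest, below all 30 embryonic arrays. It fell from E16.5 to E19.5 (-0.92 ± 0.24, limma adjusted p = 0.0152) and again to young adult (-2.04 ± 0.24, adjusted p = 5.42e-08). The first of these falls did not pass without the mixed E16.5 array (adjusted p = 0.0694) or the male E19.5 array (adjusted p = 0.108). Nor did it pass with a term for the title prefix (adjusted p = 0.268).

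In contrast, 1416752_at of Ldb3 read 7.52, 7.34 and 7.38 at E10.5, 9.001, 8.78 and 8.50 at E19.5, and 9.55, 9.58 and 9.76 in young adults. These groups did not overlap, and young adults were the highest, where they were the lowest in 1433783_at. It rose by 2.22 ± 0.17 from E10.5 to young adult (limma adjusted p = 1.14e-12), with 60.9% of the distance covered at E19.5. The remaining one, 1451999_at, rose to E19.5 (0.54 ± 0.21, adjusted p = 0.0363) and fell to young adult (-1.42 ± 0.21, adjusted p = 3.35e-06).

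Within each array, 1433783_at minus 1416752_at was 2.94, 3.10 and 3.16 at E10.5 and still 3.05, 3.12 and 3.13 at E16.5. It was 1.34, 1.38 and 2.16 at E19.5, -1.35, -1.34 and -1.15 in young adults and -0.37, -0.48 and -1.21 in old adults. The difference was lower in all 6 adult arrays than in these 9 embryonic arrays. Its change from E10.5 to young adult was -4.35 ± 0.20 (limma adjusted p = 3.89e-17). Differences of the brightest probe set of a gene minus each other one were tested for every gene with several, 17463 differences in all. Of these, 51.4% passed, and 8 of the members' 10 did: 3 in Myom2, 3 in Ttn and 2 in Ldb3. The share of all such differences is large, so that unequal change among probe sets of a gene was common on these arrays.

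**Figure D3:**
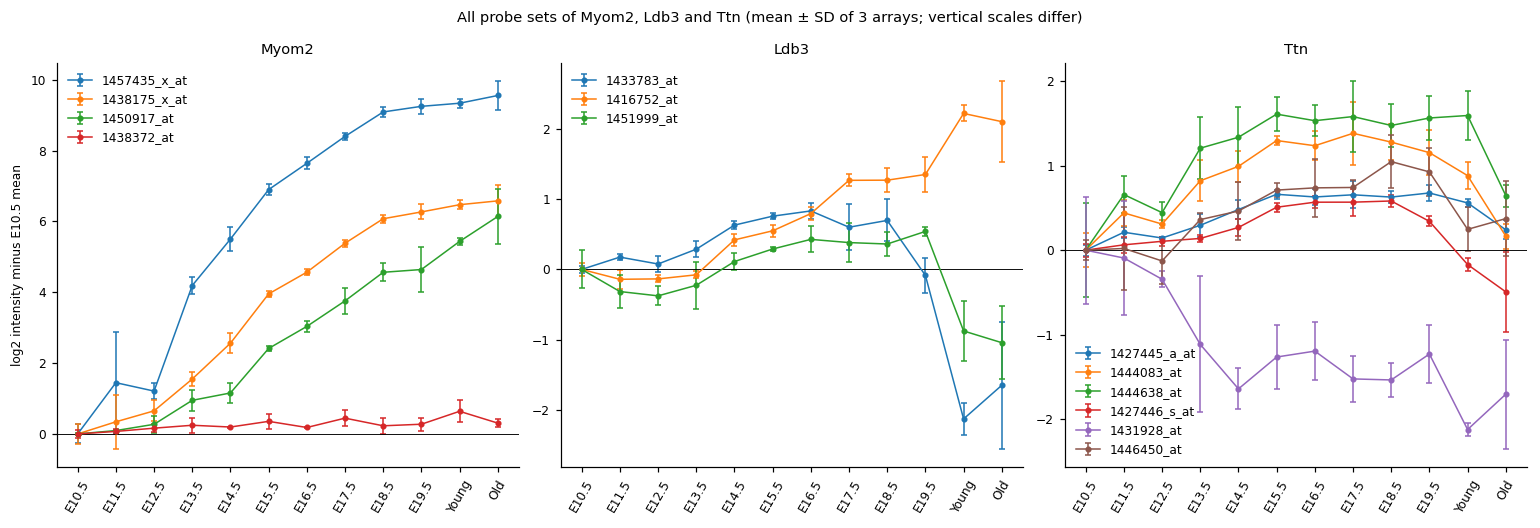
Log2 intensity of every probe set of Myom2, Ldb3 and Ttn minus its own E10.5 mean (vertical axis, scales differ between panels) at the 12 stages. Points are means and bars the SD of 3 arrays. The 3 brighter Myom2 probe sets climb together, Ldb3 splits with 1416752_at at 2.22 and 1433783_at at -2.13 in young adults, and 1431928_at of Ttn is the only one of its 6 that lies below 0 from E11.5 on.

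Actn2 and Csrp3, the alpha-actinin and the LIM protein of the Z-disc, had no change from E10.5 to young adult that passed. Actn2 read 10.59, 10.52 and 10.27 at E10.5, 11.11, 11.09 and 10.62 at E19.5, and 9.83, 9.89 and 10.22 in young adults. Its E19.5 and E10.5 arrays were above all young adult arrays. The fall from E19.5 to young adult passed (-0.96 ± 0.33, limma adjusted p = 0.0288), but not without the female or male E19.5 array or the female or male young adult array, with adjusted p values from 0.0776 to 0.0957. Csrp3 read 11.55, 11.33 and 11.26 at E10.5, 11.57, 11.20 and 10.59 at E19.5, and 10.71, 11.01 and 11.16 in young adults, with overlap between E19.5 and both other groups. Its changes were -0.42 ± 0.24 from E10.5 to young adult (adjusted p = 0.123) and -0.16 ± 0.24 from E19.5 (adjusted p = 0.664). No neighboring pair in the order of the 12 stage means was free of overlap in either gene.

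For these genes the array-level measures matter. Within stages, over 36 arrays, deviations of Actn2 correlated with those of the hybridization control level at r = -0.81, Csrp3 at -0.76, Myoz2 at -0.72, Tcap at -0.64 and Myom1 at -0.63, and Ttn at 0.83 (1444638_at), 0.77 (1444083_at) and 0.56 (1427445_a_at). Myom2 (1457435_x_at) was at 0.19 and Ldb3 (1433783_at) at -0.43. Over the 20685 probe sets with a stage mean above 5, the 5th to 95th percentile of this r ran from -0.80 to 0.64, with a median of -0.23. With the control level as a covariate, the change from E10.5 to young adult was 2.02 in Actn2 (limma adjusted p = 0.000268) and 1.20 in Csrp3 (adjusted p = 0.00573), both opposite in sign to the values without it, and that of Actn2 from E19.5 to young adult turned to 0.18 (adjusted p = 0.666). In the same fit the change from E10.5 to young adult was 8.74 in Myom2, 5.22 in Tcap, 4.84 in Myoz2 and -1.20 in Ldb3 (1433783_at), with their directions kept. That of Ttn (1427445_a_at) was 0.20 and did not pass (limma adjusted p = 0.537), against 0.56 (adjusted p = 4.41e-05) without the covariate. The control level itself differs between stages, so that the covariate takes up part of the difference between stages. The 3′ minus 5′ difference of the Gapdh control probe sets, a measure of RNA length, ran from 1.39 to 2.63 in the adult arrays. It ran from 2.19 to 5.07 in the embryonic arrays. The overlap came from E10.5 arrays at 2.19 and 2.25, and from E11.5 to E19.5 every array was at 2.76 or above. Between these stages and the adults, age and this measure cannot be told apart. Its within-stage r with the 19 member probe sets ran from -0.26 to 0.24, which does not speak to differences between stages. Whether it bears on the members' changes was not tested.

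The embryonic course was split into windows of 3 days. From E10.5 to E13.5, 8 of 19 probe sets passed, 7 higher and 1 lower, against 23.4% of all. They were 3 of Myom2, 4 of Ttn (1431928_at was the lower one) and Myoz2. The Myoz2 value, 0.72 ± 0.22 (limma adjusted p = 0.0157), did not pass without E10.5 array 3 or the female E13.5 array, and that of Ttn 1427445_a_at, 0.29 ± 0.11 (adjusted p = 0.0424), did not pass without E10.5 array 1 or 2 or the mixed E13.5 array. From E13.5 to E16.5 only 4 passed, 3 of Myom2 and 1416752_at of Ldb3, all higher, against 2.34% of all. From E16.5 to E19.5, 7 passed, 6 higher and 1 lower, against 6.93% of all: 3 of Myom2, Tcap, Myoz2 and both 1416752_at and 1433783_at of Ldb3. The count of the last window was 4 without the male E19.5 array, and 2 with a term for the title prefix of the labels, which changes within E16.5. Whether that prefix marks a batch is not stated in the labels.

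Because a shift common to both genes of an array cancels in their difference, 5 pairs of members were compared as differences inside each array. The 6 early arrays (E10.5 and E11.5) or the 6 late ones (E18.5 and E19.5) were set against the 6 adult arrays by an exact two-sided permutation test, with p values adjusted over the 10 tests. The smallest p the design allows is 0.00216. Myom2 minus Myom1 was -6.51 ± 1.27 (SD, n = 6) in early arrays, 1.53 ± 0.22 in late arrays and 2.34 ± 0.16 in adult arrays. Tcap minus Ttn was -6.26 ± 0.32, -6.42 ± 0.51 and -2.17 ± 0.35. Myoz2 minus Actn2 was -3.77 ± 0.25, -2.33 ± 0.21 and -0.29 ± 0.46. In these 3 pairs every embryonic array was below every adult array, at both ages, and the exact p was 0.00216 (adjusted 0.00271) in each of the 6 tests. Tcap and Ttn followed the hybridization control level with opposite signs (r = -0.64 and 0.56), and so did Myom2 and Myom1 (r = 0.19 and -0.63). Such an array effect does not cancel in the difference of either pair. These tests show unequal change of the 2 genes, not which of them moved, and the level of one probe set against another carries no meaning. They use the same arrays as the changes given above. The share of other gene pairs that separate as fully was not computed, so nothing particular to the members is read from these p values.

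Ldb3 (1433783_at) minus Actn2 was 0.21 ± 0.28 (SD, n = 6) in early arrays, -0.07 ± 0.65 in late arrays and -1.69 ± 0.32 in adult arrays, with every embryonic array above every adult array (exact permutation p = 0.00216, adjusted 0.00271, in both tests). With 1416752_at in its place the differences turned to 2.31 and 1.43 higher in the adult. Csrp3 minus Actn2 was 0.93 ± 0.09 in early arrays, 0.51 ± 0.41 in late arrays and 0.70 ± 0.38 in adult arrays. Its adult arrays, from 0.07 to 1.12, spanned all but 1 of the 12 embryonic ones, and the exact permutation p was 0.177 (adjusted 0.197) for early and 0.439 (adjusted 0.439) for late arrays.

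**Figure D4:**
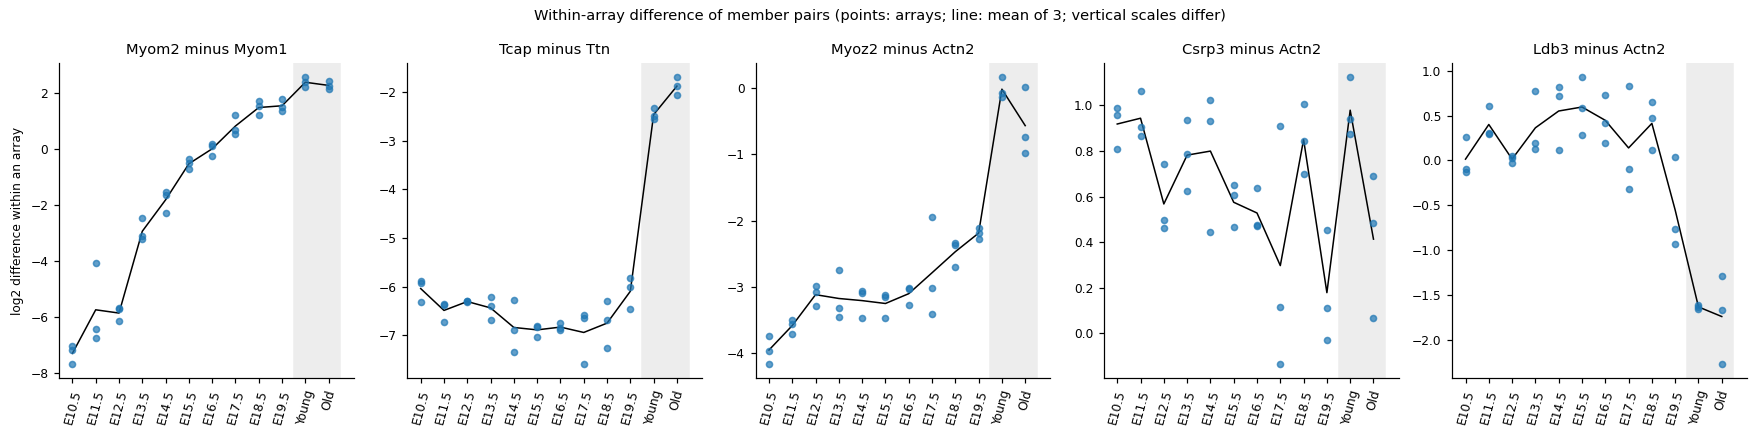
Within-array difference of 2 members (vertical axis, log2, scales differ between panels) at the 12 stages, with points for arrays, a line through the means of 3 arrays and grey for the adult stages. Tcap minus Ttn has an early mean of -6.26 and lies between -7.58 and -5.82 in all embryonic arrays. It stands at -2.17 over the 6 adult arrays, whereas Csrp3 minus Actn2 overlaps between embryonic and adult arrays.

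Between young and old adult hearts, 2 of the 19 probe sets passed, both of Ttn and both lower in old adults, against 6.96% of all. In 1444638_at the young arrays read 12.12 (female), 12.71 (male) and 12.44 (mixed) and the old arrays 11.49, 11.60 and 11.34. In 1444083_at they read 12.02, 12.27 and 11.99 against 11.48, 11.44 and 11.21. The groups did not overlap in either, and the changes were -0.95 ± 0.23 (limma adjusted p = 0.0124) and -0.72 ± 0.17 (adjusted p = 0.00853). These are the member probe sets that followed the hybridization controls most closely upwards. The control level ran from 11.86 to 12.28 in young and from 10.97 to 11.34 in old arrays, without overlap. Age and control level therefore cannot be told apart in this comparison. With the control level as a covariate the changes were -0.33 and -0.33 (adjusted p of 0.294 and 0.192), and limma called 0 of the 19, with 5 at an unadjusted p under 0.05. With the 6 adult arrays alone it called 0, with 2 at an unadjusted p under 0.05. Over all probe sets, limma called 2123 in the covariate fit and 6 in the fit of the adult arrays alone. Shares of all probe sets at the unadjusted limit are not given here, so nothing is read from the 5 and the 2.

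The old adult male array was the highest of the 3 in the brightest probe set of every member. It read 11.35 in Actn2 against 10.19 and 10.16, 11.91 in Mybpc3 against 10.91 and 11.09, and 10.34 in Myom1 against 9.56 and 9.71. In Ldb3 (1433783_at) it read 9.69 against 8.90 and 7.89. It read 12.61 in Myom2 against 12.00 and 11.86, 11.07 in Tcap against 10.79 and 11.02, and 12.93 in Ttn (1427445_a_at) against 12.85 and 12.71. The hybridization control level of that array was the lowest of the 3, 10.97 against 11.17 and 11.34. Whether this level bears on the members' values in that array was not tested. Without the mixed old adult array 4 probe sets passed between young and old adults, and without the male young adult array 1 passed.

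Other genes of the sarcomere were read from lists of M-band, Z-disc, titin spring, myosin binding and assembly genes, each from its brightest probe set. Of 53 measured genes 44 had a mean above 5 in some stage. Between E10.5 and young adult 17 of these rose, 16 fell and 11 did not pass, with a median of -0.17. From E10.5 to E19.5, 10 rose and 16 fell, and from E19.5 to young adult 14 rose and 12 fell. The members' own brightest probe sets gave 5 that rose and 2 that fell of 9 from E10.5 to young adult, with a median of 0.52. In this contrast 63% of all probe sets passed, and nothing particular to the members is read from these counts.

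Among 9 expressed M-band genes 4 rose and 3 fell from E10.5 to young adult. Ckm, the muscle creatine kinase bound at the M-band, had a fitted change of 6.40 ± 0.36 (limma adjusted p = 7.81e-16), with means of 3.62 in E10.5, 9.84 in E19.5 and 10.01 in young adult hearts. As in Myom2, the change after E19.5 did not pass (0.18 ± 0.36, adjusted p = 0.757). Smyd1, a methyltransferase of myosin assembly, had the lowest change, -3.64 ± 0.29 (adjusted p = 5.26e-12). Fhl2, a LIM protein that binds titin, rose by 1.33 ± 0.22 (adjusted p = 6.55e-06). Trim63, a ubiquitin ligase, changed by -0.50 ± 0.35 (adjusted p = 0.218). Myom3, the remaining myomesin, had no stage mean above 3.32.

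Of 24 expressed Z-disc genes 9 rose and 10 fell. Myot (myotilin), a partner of alpha-actinin, had a course like that of Tcap. Its mean was 2.43 at E19.5, 5.48 in young adults and 6.61 in old adults, and the change from E19.5 to young adult was 3.05 ± 0.30 (limma adjusted p = 2.1e-09). Cmya5 (myospryn) rose by 3.09 ± 0.20 from E10.5 to young adult (adjusted p = 4.23e-14). Pdlim7, a PDZ-LIM relative of Ldb3, fell (-3.28 ± 0.23, adjusted p = 1.6e-13), as did Nebl, the cardiac relative of nebulin (-3.05 ± 0.25, adjusted p = 7.69e-12). Trim54, a muscle ubiquitin ligase named here after its values were seen, rose from 4.29 at E19.5 to 7.42 in young adults (3.13 ± 0.30, adjusted p = 8.1e-10). Nebulin itself (Neb) had no stage mean above 2.37. Des (desmin), which ties Z-discs of neighboring myofibrils, changed by -0.20 ± 0.25 (adjusted p = 0.489).

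The means of Ckm at E10.5, of Myot at E10.5 and E19.5, of Trim54 at both and of Mybpc2 at both were below the expression limit of 5, so that the sizes of their changes depend on the lowest intensities, as in Myom2. The smaller lists were mixed too. Of 2 expressed titin spring binders 1 rose (Ankrd23, 1.96 ± 0.28), and Ankrd1, a stress-responsive one, changed by 0.43 ± 0.22 from E10.5 to young adult (limma adjusted p = 0.0859). Of 2 expressed myosin binding proteins other than Mybpc3 1 rose (Mybpc2, 3.04 ± 0.32). Ankrd23 and Mybpc2 were named after their values were seen. Of 7 assembly chaperones and nucleators 2 rose and 3 fell.

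**Figure D5:**
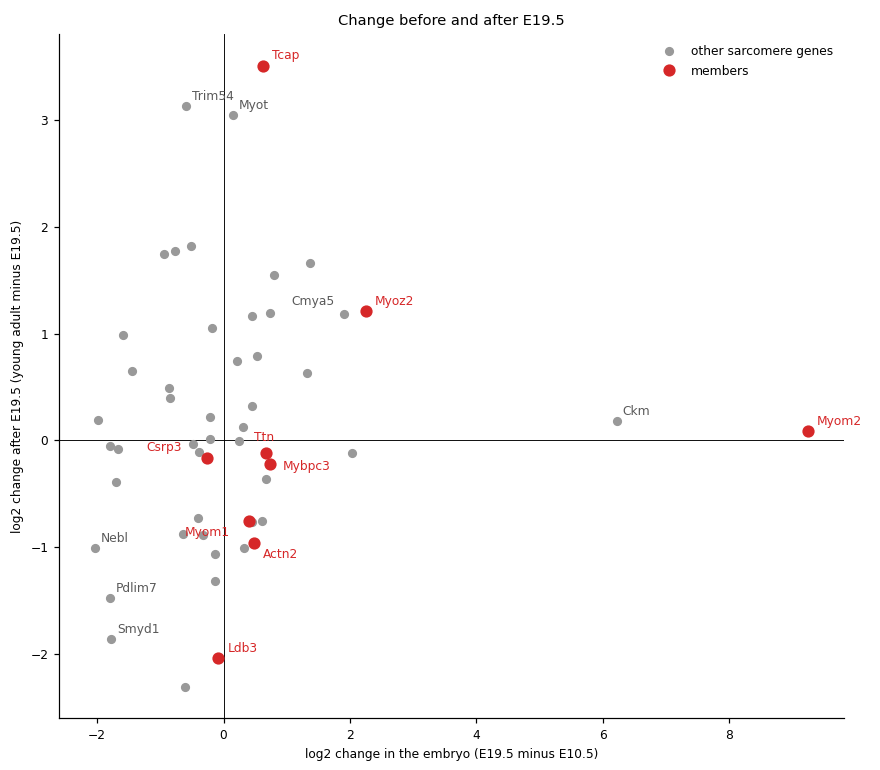
Log2 change from E10.5 to E19.5 (horizontal axis) against that from E19.5 to young adult (vertical axis) for the brightest probe sets of the 9 members (red) and of 44 other sarcomere genes (grey). The E19.5 arrays enter both axes. Myom2 and Ckm lie far to the right near 0 on the vertical axis, Tcap, Trim54 and Myot lie high near 0 on the horizontal axis, and Ldb3 (1433783_at) lies low.

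As a description of likeness, each member's 12 stage means were correlated with those of 13154 other probe sets that carry a symbol, a mean above 5 and a range above 1. The 12 points share their arrays, and slow trends over stages give high values to many genes. Nearest to Myom2 were Card10 (r = 0.99) and A130088B03Rik (0.99). Nearest to Tcap were S100a4 and Gbp2 (both 0.996). Myoz2 had Mb, which encodes myoglobin (0.99), and Ifitm3 (0.99), and Ldb3 (1433783_at) had Ppargc1a and Camk2g (both 0.995). Mybpc3 had 1700120C14Rik and Etl4 (both 0.98), Ttn had Itga1 and Aph1a (both 0.97), and Myom1 had Hagh (0.95) and Slk (0.94). Actn2 had Dlst (0.93) and Slc12a7 (0.91), and Csrp3 had Hspa8 (0.90) and Sirt5 (0.87). Among members, Tcap and Myoz2 had r = 0.86, Tcap and Myom2 0.48, and Tcap and Ldb3 (1433783_at) -0.95.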

How the data were processed

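RNA of whole mouse hearts had been hybridised to Affymetrix whole-genome mouse expression arrays, 3 for each of 12 stages. The deposited values are log2 intensities that the authors made by RMA, with background subtraction, quantile normalization between arrays and summary of the probes, and the submitters' processing notes also name Affymetrix Expression Console and Partek 6.6. RMA shrinks changes of dim probe sets, and quantile normalization forces all arrays to 1 distribution. The number of arrays limits the precision. From the log2 values, 1 model of 12 stage means was fitted to all 45101 probe sets and 36 arrays with limma 3.58.1 (R 4.3.3), with empirical Bayes moderation and Benjamini-Hochberg adjustment per contrast. Errors given with ± are SE for changes and SD for means. Pairs of members were tested with scipy 1.17.1. The code was tested on simulated data.

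The members and lists were chosen with earlier results of these data known. Named genes were all members, the 3 highest and 3 lowest changes from E10.5 to young adult over the other sarcomere lists, 8 genes named whatever their values (1 of which is not reported here), and for each member the 2 genes most like it. The highest-mean probe set of a gene was read first. The methods call the 3 samples of a stage biological replicates, without naming litters, and the mixed samples combine hearts of both sexes. Within a stage, sex and array cannot be told apart. Alternatives were renormalization, centring, a filter on low values, added terms, other probe sets, fewer stages and leaving out arrays. The terms, added in turn, were the hybridization control level, the title prefix and the sex label. The Gapdh difference was not fitted as a term. The microRNA arrays were not analysed here.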

Additional observations from a re-analysis of the deposited data

How the results depend on the processing

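Of 862 recomputed member values, 776 kept their side of the threshold, and 64 of these had the other sign with neither value passing. A further 43 no longer passed, 24 newly passed and 19 had the other sign with at least 1 of the values passing. Myom2, Tcap and Myoz2 kept direction and call from E10.5 to young adult under every alternative run. Centring on probe sets above 5 moved the medians of arrays by -0.32 to 0.31.

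DEGs among the 19 between E19.5 and young adult numbered 1 in place of 2 with renormalization, centring, the hybridization control covariate or only the stages compared, and 1 to 2 when an array was left out (1 without the mixed E19.5, the male or the female young adult array). With a term for the title prefix, the count from E10.5 to E19.5 was 8 in place of 15 and that from E16.5 to E19.5 was 2 in place of 7, and leaving out an array gave 11 to 14 and 4 to 7. Between young and old adults the count was 0 in place of 2 with the covariate and with only those stages, where limma called 2123 and 6 of all probe sets, and 1 to 4 when an array was left out. From E13.5 to E16.5 the count was 9 in place of 4 with the covariate. Outside the comparison of adults, totals over all probe sets under these settings are not given here. Whether the members or the arrays as a whole moved cannot be judged from such counts. Ldb3 minus Actn2 turned to 2.31 (early) and 1.43 (late) with the second probe set of Ldb3. The cause was not tested.

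Signs turned as follows. From E10.5 to young adult, Myom1 was 0.18 with centring and 0.40 with the covariate, Csrp3 1.20 and Actn2 2.02 with the covariate, and by probe set Ttn -0.17 and -2.12 and Ldb3 2.22. From E19.5 to young adult, the covariate gave 0.57 in Csrp3 and 0.18 in Actn2, and the other probe set of Ldb3 0.87. From E10.5 to E19.5, Csrp3 was 0.63 with the covariate, and by probe set Ttn was -1.23 and Ldb3 1.35 and 0.54. From E10.5 to E13.5, Actn2 was 0.94 with the covariate and Ttn -1.11 by probe set. By probe set, Myom2 was -0.063 from E13.5 to E16.5 and Ldb3 0.56 and 0.11 from E16.5 to E19.5.

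With the sex label as a replicate block, counts were 11 and 2 (DEGs) from E19.5 to young adult, 2 between adults, 4 from E13.5 to E16.5 and 6 from E16.5 to E19.5. Deviations of arrays of the same label correlated at 0.19, 0.02 and 0.08 between E19.5 and young adult and at 0.08, -0.00 and 0.04 between adults. Arrays of unlike labels and other stages were not compared in this way, so these values do not settle whether arrays are paired.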
